A study of Rattus norvegicus with 12 samples.

Results

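In articular cartilage the layer below the surface is called the intermediate/deep zone (IDZ), and in the growth plate the reserve layer is the resting zone (RZ). These 2 zones were compared in the proximal tibia of 10-day-old Sprague-Dawley rats, which carried no transgene and received no treatment. The members were the 4 IDZ and 4 RZ arrays among the 12 arrays of the series, and the other 4 arrays held the superficial zone (SZ) at the joint surface. Each IDZ or RZ array held RNA from 4 tissues of 2 animals, the tissues being cut by hand from sections, and the IDZ and RZ arrays of one replicate number came from the same 2 animals. Each SZ array held 2 tissues of 1 animal, and these animals were among those of replicates 3 and 4. The layer just under the SZ was discarded and hypertrophic and calcified cartilage was avoided, and the zones were cut by position and cell appearance. Staining for Prg4 and Col10a1 transcripts in parallel helped to place the surface and the hypertrophic cells, so the values of these 2 genes are not independent of the dissection. Expression was measured with Affymetrix Rat Gene 1.0 ST microarrays and is given in log2 units, in which a difference of 1 is 2-fold. The 14300 genes are those named by 1 symbol on the array, each represented by its brightest transcript cluster, and 495 of them had more than 1 cluster.

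At this age a centre of bone has formed inside the cartilage end of the tibia. It parts the cartilage that goes on to cover the joint from the cartilage that lengthens the bone. Chondrocytes, the only regular cell type of both tissues, make a matrix of type II collagen and aggrecan. The RZ is the reserve of the growth plate, from which cells enter columns, divide, enlarge and are replaced by bone, whereas the IDZ lies under the lubricated joint surface. The comparison asks how far the transcripts of these 2 chondrocyte populations have come apart soon after their separation.

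Both zones carried the chondrocyte signature that the labels imply. The mean level of 6 chondrocyte markers lay between 13.12 and 13.20 log2 units in the 4 IDZ arrays and between 13.11 and 13.29 in the 4 RZ arrays, and none of the 6 was called at the threshold used throughout (limma adjusted p under 0.05), which 8.8% of all genes passed. Type II collagen (Col2a1) differed by 0.10 ± 0.08 (SE, n = 4 arrays per zone), aggrecan (Acan) by -0.09 ± 0.09 and matrilin 3 (Matn3) by -0.07 ± 0.11, as IDZ minus RZ. The median standard deviation of a gene was 0.113 log2 units among the IDZ arrays and 0.113 among the RZ arrays, and 0.232 among the SZ arrays. SZ replicate 4 stood apart, with an interquartile range of 2.24 log2 units against 2.72 to 2.91 for the other SZ arrays. It enters the shared estimate of the spread, and the effect on the counts is given with them.

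Promoter sequences are shown for 4 genes of the cell cycle lists, because in these lists no gene was called higher in IDZ and most were called higher in RZ. They are the 2 genes of each list with the largest difference among called genes whose window held the searched motif. Each line gives the 250 bases before the transcription start from RefSeq (GRCr8), 5′ to 3′ on the gene's strand. In the mitosis genes Pttg1 (securin, which holds sister chromatids together until anaphase, chr10:28406327-28406576, minus strand) and Cdc20 (activator of the anaphase-promoting complex, chr5:137255800-137256049, minus strand) the capitals mark the cell cycle homology region motif TTTGAA on either strand. In the replication genes Mcm6 (chr13:42404353-42404602, minus strand) and Mcm5 (chr19:13488563-13488812, plus strand), both subunits of the helicase that opens DNA, the capitals mark the E2F motifs TTTGGCGC or TTTCCCGC on either strand.
Pttg1: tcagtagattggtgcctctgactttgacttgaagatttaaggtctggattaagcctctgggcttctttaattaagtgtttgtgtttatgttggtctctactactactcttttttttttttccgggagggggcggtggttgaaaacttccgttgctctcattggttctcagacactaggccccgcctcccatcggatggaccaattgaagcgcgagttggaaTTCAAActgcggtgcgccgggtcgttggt
Cdc20: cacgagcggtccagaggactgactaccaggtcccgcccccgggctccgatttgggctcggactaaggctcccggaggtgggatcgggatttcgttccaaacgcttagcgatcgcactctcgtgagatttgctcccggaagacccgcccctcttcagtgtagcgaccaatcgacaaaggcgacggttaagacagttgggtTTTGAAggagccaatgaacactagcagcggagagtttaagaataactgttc
Mcm6: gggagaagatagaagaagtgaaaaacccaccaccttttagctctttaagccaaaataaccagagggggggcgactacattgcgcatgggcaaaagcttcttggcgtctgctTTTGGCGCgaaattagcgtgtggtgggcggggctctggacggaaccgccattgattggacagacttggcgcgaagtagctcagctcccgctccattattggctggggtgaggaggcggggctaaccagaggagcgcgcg
Mcm5: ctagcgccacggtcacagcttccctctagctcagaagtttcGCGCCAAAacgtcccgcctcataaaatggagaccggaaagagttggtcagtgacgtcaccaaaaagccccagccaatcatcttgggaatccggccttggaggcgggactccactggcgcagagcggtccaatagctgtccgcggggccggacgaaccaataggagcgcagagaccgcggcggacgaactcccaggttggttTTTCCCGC

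The Pttg1 motif began 29 bases before the start and the Cdc20 motif 51 bases before it. The Mcm6 motif began 139 bases before the start, and those of Mcm5 began 209 and 8 bases before it. TTTGAA stood in 11 of the 24 mitosis genes with a promoter in the table, against 17.2% of all 27457 genes there, and in 7 of the 17 that were called. Either E2F motif stood in 7 of the 24 replication genes with a promoter, against 1.34% of all genes, and in 6 of the 14 that were called. The GLI motif GACCACCCA, searched for the hedgehog list, stood in 1 of its 9 promoters and in 0.357% of all genes, and in none of the 3 whose gene was called. These matches describe letters in a window.

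Over all genes, 461 (3.22% of 14300) were higher in IDZ and 798 (5.58%) higher in RZ by limma at an adjusted p under 0.05. With a difference of at least 2-fold as well, 101 genes (0.706%) were higher in IDZ and 75 (0.524%) higher in RZ. Without SZ replicate 4 the counts without a minimum fold were 817 and 1747. Without any one of IDZ replicates 1, 2 and 3 or RZ replicates 1, 2 and 4 the RZ count lay between 464 and 509. A fit on the 8 IDZ and RZ arrays alone called 876 genes higher in IDZ and 1816 higher in RZ, and the same fit with animal pairs as a block called 867 and 1708. The 2-fold counts stayed between 97 and 106 for IDZ and between 74 and 83 for RZ whichever array was left out. The 4 arrays of IDZ lay above the 4 of RZ without overlap in 8.71% of all genes, and the reverse held in 15.6%. The median difference of all genes was 0.01 log2 units. The shares of 3.22% and 5.58% are the background for each list count below.

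**Figure D1:**
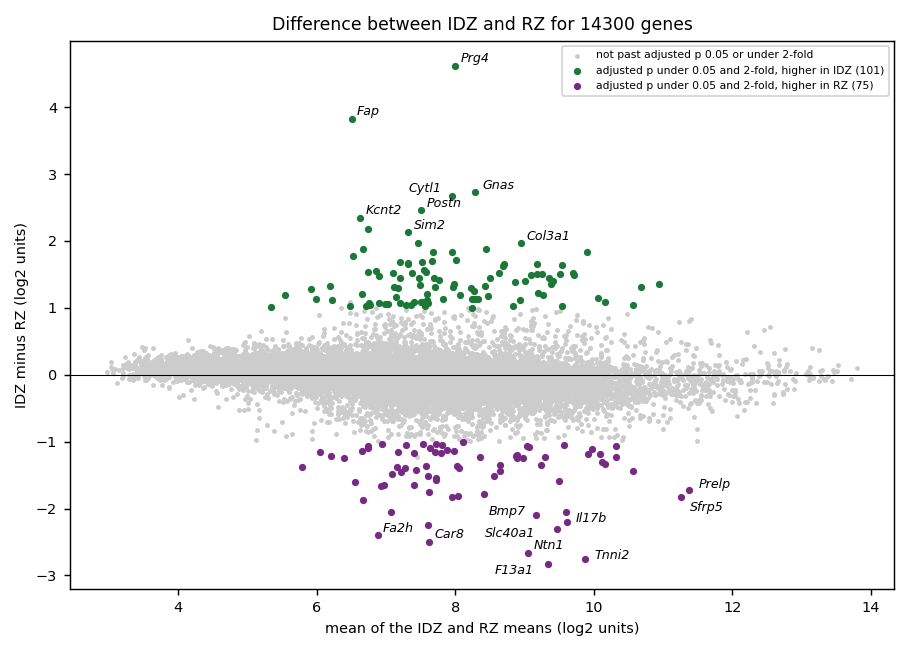
Difference between IDZ and RZ (log2 units, vertical) against the mean of the 2 zone means (log2 units, horizontal) for 14300 genes. Green points are the 101 genes called higher in IDZ with at least 2-fold, purple points the 75 called higher in RZ, and Prg4 stands highest at 4.62.

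The largest difference toward IDZ was that of a joint surface gene, although of 13 measured joint surface genes only 3 were higher in IDZ (Prg4, Creb5 at 0.91 and Dkk3 at 0.84), 1 was higher in RZ (Foxo1 at -0.70) and 9 did not pass. Dkk3 was not called without any one of IDZ replicates 1, 2 and 3 or RZ replicates 1, 2 and 4 (limma adjusted p = 0.0651 to 0.0887), nor with animal pairs as a random block (limma adjusted p = 0.0675). Prg4, which encodes lubricin, the boundary lubricant of joints, measured 10.61, 10.80, 10.95 and 8.86 log2 units in IDZ replicates 1 to 4 and 5.24, 6.40, 5.57 and 5.53 in RZ replicates 1 to 4. All IDZ arrays lay above all RZ arrays, and IDZ replicate 4 lay below the other IDZ arrays. The difference was 4.62 ± 0.36, or 24.6-fold (limma adjusted p = 1.13e-06), and 5.10 without IDZ replicate 4. The SZ arrays averaged 12.78 ± 0.19 (SD, n = 4). In bulk samples such as these, fewer cells of a type and less RNA per cell cannot be told apart.

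Fap encodes fibroblast activation protein, a cell-surface serine protease of activated fibroblasts. It measured 8.50, 8.33, 8.53 and 8.32 in IDZ and 4.43, 4.78, 4.45 and 4.70 in RZ. The 2 groups did not overlap and were each narrow, and the difference of 3.83 ± 0.11 was 14.2-fold (limma adjusted p = 4.51e-11). Periostin (Postn), a matricellular protein of ligament and periosteum, measured 8.97, 8.99, 8.39 and 8.60 in IDZ and 5.82, 6.55, 6.40 and 6.34 in RZ. Its groups were also apart, by 2.46 ± 0.18 (5.50-fold, limma adjusted p = 4.19e-07).

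The list of fibrous connective tissue genes held 26 measured members, of which 17 were higher in IDZ, none was higher in RZ and 9 did not pass the test, against 3.22% of all genes higher in IDZ. Their median difference was 0.96 log2 units against 0.01 for all genes. Type III collagen (Col3a1) and versican (Vcan), a large proteoglycan of loose matrix, each differed by 1.97 (SE 0.14 and 0.17), dermatopontin (Dpt) by 1.78 ± 0.26, Col8a1 by 1.51 ± 0.14 and microfibril-associated Mfap4 by 1.50 ± 0.09. Col1a2, a chain of type I collagen, was called at 1.35 ± 0.27 although its highest RZ array lay above its lowest IDZ array. Col1a1, the other chain, measured 12.23, 12.10, 11.92 and 11.00 in IDZ and 10.26, 11.43, 11.82 and 10.43 in RZ. Those groups overlapped, and its difference of 0.83 ± 0.31 was not called (limma adjusted p = 0.144). Decorin, fibronectin and osteoglycin had differences of 0.22, 0.05 and -0.09 and were not called either.

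The cartilage matrix genes moved little beside this. Of 22 measured, 2 were higher in IDZ, 1 was higher in RZ and 19 did not pass, with a median difference of 0.02. The member higher in RZ was Prelp, a leucine-rich proteoglycan that binds collagen and heparan sulfate. The paper lists Prelp among markers of the proliferative zone, the growth plate layer of dividing columns under the RZ. It measured 10.50, 10.64, 10.60 and 10.32 in IDZ and 12.33, 12.44, 12.09 and 12.09 in RZ, groups that did not overlap, for a difference of -1.72 ± 0.11 (limma adjusted p = 1.18e-07).

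Of 35 measured matrix-degrading enzymes and their inhibitors, 13 were higher in IDZ and 3 higher in RZ, against 3.22% and 5.58% of all genes. On the IDZ side Htra1, a secreted serine protease that cleaves matrix and TGF-beta family ligands, measured 9.51, 9.52, 9.52 and 9.45 against 7.98, 7.78, 7.87 and 7.84 in RZ. The arrays of each zone lay close together and the zones apart, and the difference was 1.63 ± 0.09 (limma adjusted p = 5.68e-08). Mmp3 (stromelysin 1) was higher in IDZ by 1.12 ± 0.19. On the RZ side stood Serpine2 (protease nexin 1, an inhibitor of thrombin and plasminogen activators) at -2.05 ± 0.14, the carboxypeptidase Cpa6 at -1.88 ± 0.10 and the carboxypeptidase Cpm at -1.35 ± 0.16.

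**Figure D2:**
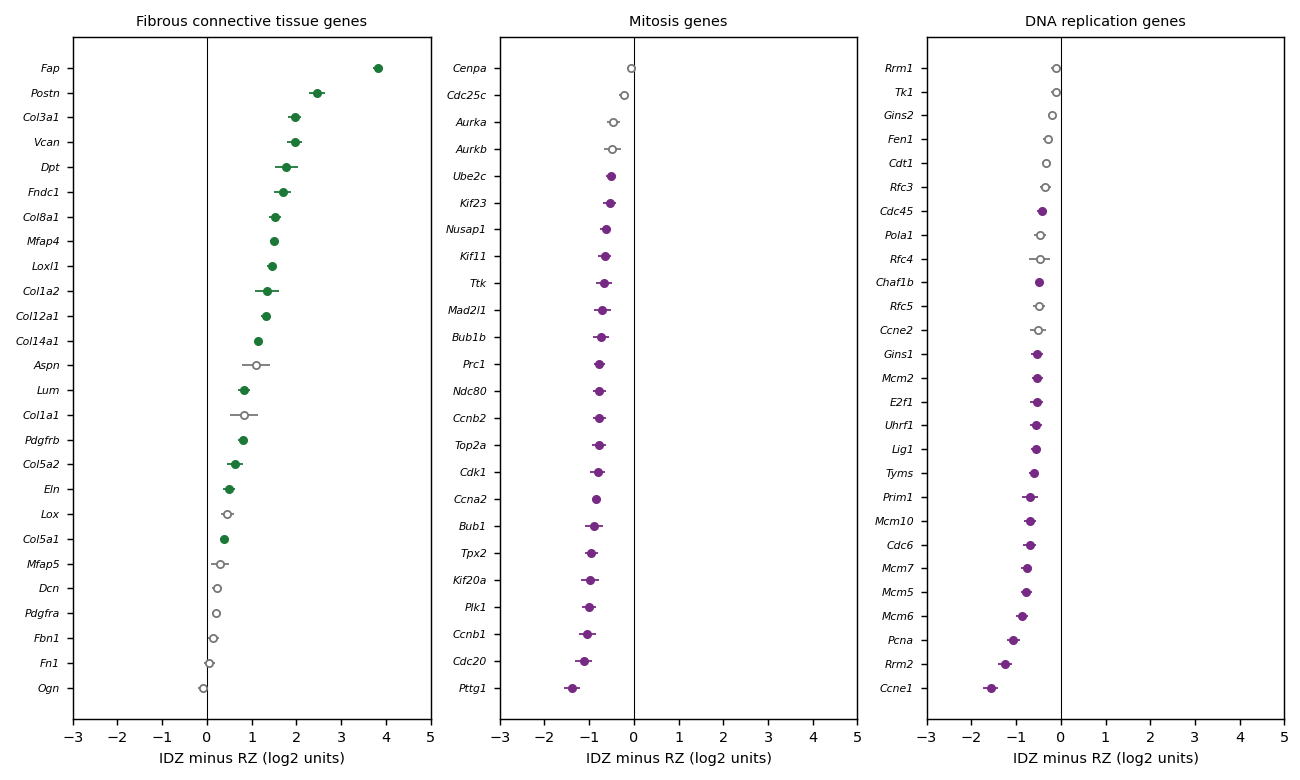
Difference between IDZ and RZ (log2 units, horizontal, bars ± SE) for every measured gene of the fibrous connective tissue, mitosis and DNA replication lists. Filled points passed an adjusted p of 0.05 (green higher in IDZ, purple higher in RZ) and open points did not; 17 of 26 fibrous genes are green, and 20 of 24 mitosis genes and 17 of 27 replication genes are purple.

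Levels in the SZ were set beside these differences, because the joint surface lies next to the IDZ. The SZ means of fibrous genes stood above the IDZ arrays, with Postn at 11.83 ± 0.26, Col3a1 at 11.84 ± 0.14, Vcan at 11.36 ± 0.32 and Dpt at 11.03 ± 0.17. Tenomodulin (Tnmd), a membrane glycoprotein of tendon, measured 5.28, 5.28, 5.29 and 5.26 in IDZ, 5.04, 4.87, 4.78 and 5.08 in RZ and 9.88 on average in SZ. The IDZ arrays of Tnmd lay above the RZ arrays by 0.34 ± 0.16, which was not called (limma adjusted p = 0.254) but was called in the fit on the 8 IDZ and RZ arrays alone (limma adjusted p = 0.0146) and in the same fit with animal pairs as a block (limma adjusted p = 0.0267).

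For a gene, the distance of the IDZ mean from the RZ mean was also expressed as a percent of the distance between the SZ and RZ means, with all 3 means taken out of the log. It was 0.887% for Tnmd, 1.12% for keratocan (Kera), 1.81% for Tppp3, 2.24% for asporin (Aspn), 3.20% for Cd34 and 5.94% for Dpt, all markers of the superficial zone. The same measure was 17.4% for Prg4, 9.78% for Postn, 21.1% for Col3a1, 30.7% for Fap and 78.3% for Cytl1, a secreted protein of chondrocytes. The 6 superficial zone markers just given are among the genes the paper lists as highest in SZ over IDZ on these arrays. That choice favours low values. Prg4, Postn, Col3a1, Fap and Cytl1 were named for large differences between IDZ and RZ, which favours higher values. The contrast between these genes thus follows in part from how they were chosen. Array signals are also not strictly proportional to RNA. Over the list of 8 superficial zone markers the array means ran from 6.42 to 7.35 in IDZ, from 5.68 to 6.13 in RZ and from 10.59 to 11.27 in SZ, with IDZ replicate 4 lowest among the IDZ arrays. Of these 8, 2 (Prg4 and Dpt) were higher in IDZ and none was higher in RZ. The part of SZ tissue in the IDZ values was not tested.

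Other genes high in IDZ were at or below the IDZ level in SZ. Kcnt2, a sodium-activated potassium channel, measured 7.75, 7.79, 7.83 and 7.84 in IDZ, 5.50, 5.43, 5.30 and 5.59 in RZ and 7.36 ± 0.22 in SZ. The IDZ values lay close together, well clear of RZ, and the difference was 2.34 ± 0.11 (5.08-fold, limma adjusted p = 1.77e-08). The sorting receptor Sorcs3 measured 7.57, 7.77, 7.80 and 8.17 in IDZ and 5.65, 5.58, 5.69 and 5.68 in RZ, with 6.77 ± 0.26 in SZ. Fam151a was at 8.86, 8.92, 8.73 and 8.94 in IDZ, 6.93, 7.37, 7.31 and 7.00 in RZ and 6.44 ± 0.14 in SZ. In both genes every IDZ array stood above every RZ array, by means of 2.18 ± 0.14 and 1.71 ± 0.11. Cxcl14, a chemokine, was likewise higher in IDZ than RZ by 1.64 ± 0.11 and averaged 8.83 in SZ, within the range of the RZ arrays (8.57 to 8.91).

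Gnas, the locus of the stimulatory G protein alpha subunit that relays the parathyroid hormone receptor and many others, measured 9.67, 9.99, 9.71 and 9.24 in IDZ and 6.95, 6.73, 7.13 and 6.88 in RZ. The groups were separate by 2.73 ± 0.14 (6.64-fold, limma adjusted p = 3.07e-08). Gnas has several imprinted and non-imprinted transcripts, and which of them its cluster reads was not determined here. Pth1r, the receptor for parathyroid hormone and its related protein, was lower in IDZ, by -0.59 ± 0.10. Among 19 measured imprinted genes 3 were higher in IDZ (Gnas, Mest at 1.39 and Dlk1 at 0.72) and 3 higher in RZ (Cdkn1c at -0.91, Nnat and Slc38a4), with a median difference of 0.00. Nnat was not called without any one of RZ replicates 1 and 2 or the 4 IDZ replicates (limma adjusted p = 0.0572 to 0.11), nor Slc38a4 without any one of IDZ replicates 2 and 3 or RZ replicates 1, 2 and 3 (limma adjusted p = 0.0561 to 0.101).

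**Figure D3:**
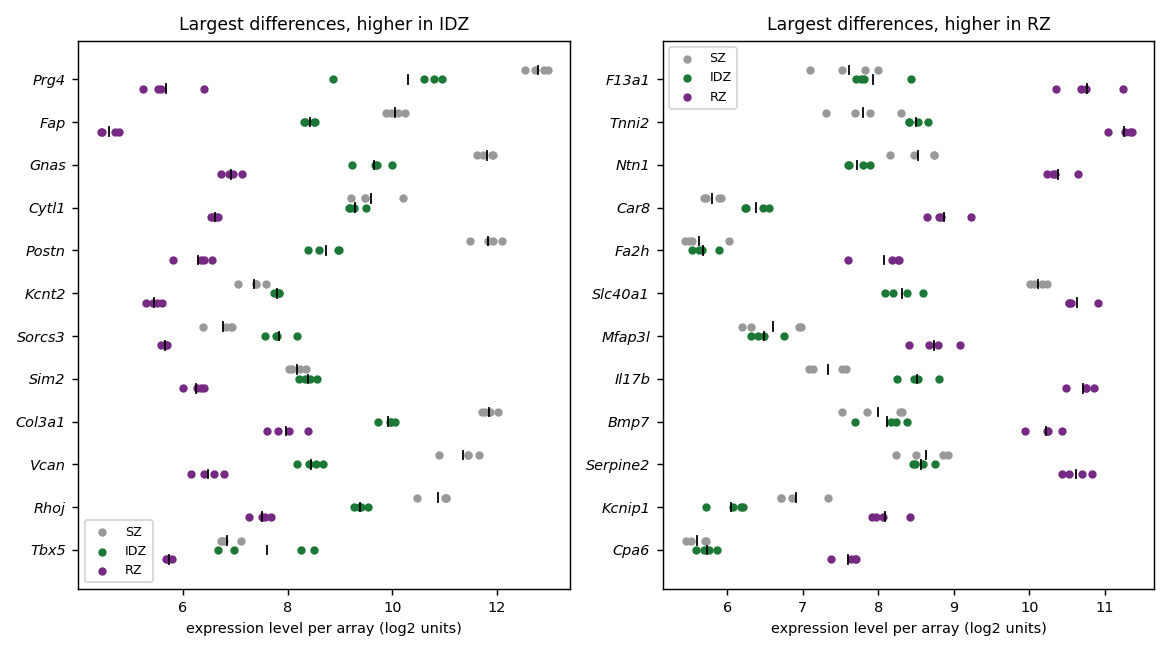
Expression level (log2 units, horizontal) on every array for the 12 genes with the largest difference in each direction, IDZ in green, RZ in purple and SZ in grey, with black bars at the means of 4 arrays. Genes were taken only where green and purple do not overlap, and the 4 green points of Tbx5 lie as 2 pairs.

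Among genes named by 1 symbol, the largest difference toward RZ was that of F13a1, the catalytic subunit of the crosslinking enzyme factor XIII. It measured 10.35, 10.68, 10.75 and 11.24 in RZ and 7.78, 7.81, 7.71 and 8.43 in IDZ. The zones did not overlap, and replicate 4 was highest in both. The difference was -2.82 ± 0.22 (7.08-fold higher in RZ, limma adjusted p = 8.47e-07). In SZ the gene averaged 7.61 ± 0.40.

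Tnni2, the fast skeletal form of troponin I, measured 11.33, 11.27, 11.04 and 11.36 in RZ against 8.40, 8.40, 8.52 and 8.65 in IDZ. It was 6.74-fold higher in RZ (-2.75 ± 0.16, limma adjusted p = 6.55e-08). Of 31 measured striated muscle markers 28 did not pass, and the list's median difference was 0.09. Tnni2 and desmin (Des, -0.85 ± 0.15) were higher in RZ, while Tnnt3, fast troponin T, was higher in IDZ by 0.55 ± 0.12. The other 6 markers of the list, Casq1 among them, have no cluster named by 1 symbol here. The paper lists Casq1 among the genes higher in RZ than in IDZ on these arrays.

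Netrin 1 (Ntn1), an axon guidance ligand, measured 10.32, 10.34, 10.23 and 10.64 in RZ and 7.61, 7.89, 7.60 and 7.79 in IDZ, a clear separation of -2.66 ± 0.14 (6.31-fold, limma adjusted p = 3.07e-08). Among 36 measured axon guidance genes 7 were higher in RZ and 2 higher in IDZ, against 5.58% and 3.22% of all genes. The other RZ members with the largest differences were the transmembrane ligand Efnb2 (-0.98) and the semaphorin receptor Plxnd1 (-0.74). The IDZ members were the semaphorin co-receptor Nrp2 (1.65 ± 0.12) and its family's ligand Sema3a (1.21 ± 0.14).

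Of 34 measured adhesion genes best known from neurons, 10 were higher in RZ and 4 higher in IDZ, against 5.58% and 3.22% of all genes. The median difference of the list was 0.03, with 18 members above 0 and 16 below. Nptx1 (neuronal pentraxin 1) was at -1.83 ± 0.16, Adgrb1 at -1.79 ± 0.16, Lingo3 at -1.37 ± 0.15 and contactin 1 (Cntn1) at -1.33 ± 0.15. Calsyntenin 2 (Clstn2) was higher in IDZ at 1.55 ± 0.26. Myelin-associated glycoprotein (Mag) was the one Schwann cell marker called of 10 measured, at -1.17 ± 0.14, and Sox10 and S100b of the same list were not called.

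Enzymes and transporters with large RZ values included Car8, a carbonic anhydrase-related protein that lacks the enzyme activity. It measured 8.80, 8.64, 8.83 and 9.23 in RZ and 6.25, 6.24, 6.48 and 6.55 in IDZ, with no overlap (-2.50 ± 0.12, 5.64-fold, limma adjusted p = 3.07e-08). The mitochondrial anhydrase Car5b differed by -1.64 ± 0.14, and the other 12 measured members of the family did not pass. Slc40a1, the iron exporter ferroportin, measured 10.55, 10.53, 10.52 and 10.91 in RZ and 8.20, 8.39, 8.09 and 8.60 in IDZ. Its groups were apart by -2.31 ± 0.12 (4.96-fold, limma adjusted p = 3.10e-08). Of 16 measured iron genes 3 were higher in RZ and 1, the zinc and iron importer Slc39a8 (1.13 ± 0.16), was higher in IDZ. Fa2h, which hydroxylates the fatty acids of sphingolipids, differed by -2.40 ± 0.16, and the cytokine Il17b by -2.20 ± 0.14. The chemokine receptor Cxcr4 was higher in RZ by 1.81 on the log2 scale (fold 3.52, SE 0.11).

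Genes of cell division were higher in RZ than in IDZ. Of 24 measured mitosis genes 20 were called higher in RZ, against 5.58% of all genes, and none higher in IDZ. The median difference was -0.77. The mean level of the list was 7.33 in IDZ, 8.07 in RZ and 7.90 in SZ, where the arrays ran from 7.43 to 8.26. Securin (Pttg1), whose promoter is shown above, measured 7.23, 7.66, 7.21 and 7.36 in IDZ and 8.71, 8.99, 8.55 and 8.76 in RZ. Every RZ array lay above every IDZ array, and the difference was -1.39 ± 0.17 (2.62-fold, limma adjusted p = 0.000126). Cdc20 differed by -1.12 ± 0.19, cyclin B1 (Ccnb1) by -1.04 ± 0.19 and its kinase Cdk1 by -0.81 ± 0.16. Cenpa, Cdc25c, Aurka and Aurkb, with differences of -0.06, -0.23, -0.46 and -0.48, were not called.

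Of 27 measured DNA replication genes 17 were called higher in RZ and none higher in IDZ, with a median difference of -0.53. Cyclin E1 (Ccne1), which starts S phase with its kinase, measured 6.91, 6.98, 6.95 and 6.93 in IDZ and 8.52, 8.50, 8.50 and 8.53 in RZ. Both groups were narrow (SD 0.03 in IDZ and 0.02 in RZ) and lay -1.57 ± 0.17 apart (2.97-fold, limma adjusted p = 3.14e-05). The SZ arrays, with an SD of 0.48, enter that SE. The ribonucleotide reductase subunit Rrm2 differed by -1.25 ± 0.15, the sliding clamp Pcna by -1.06 ± 0.14, and the helicase subunits Mcm6 and Mcm5, shown above, by -0.86 ± 0.14 and -0.77. Without RZ replicate 2 the number called was 11 of 27. The mean level of the list was 7.27 in IDZ, 7.86 in RZ and 7.67 in SZ, where the arrays ran from 7.30 to 7.87.

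Among G1 regulators, cyclin D1 (Ccnd1) was lower in IDZ, at 7.80, 7.84, 8.03 and 8.04 against 9.46, 9.56, 9.11 and 9.33 in RZ (-1.44 ± 0.12, limma adjusted p = 2.62e-06). The groups did not overlap. Its partner Cdk4 differed by -0.63 ± 0.09, and the CDK inhibitor Cdkn1c by -0.91 ± 0.09, also higher in RZ. Cyclin D2 (Ccnd2) was higher in IDZ by 0.49 ± 0.11, a call lost without IDZ replicate 2 or RZ replicate 4 (limma adjusted p = 0.0535 and 0.0592). In all 15 measured members, 1 was higher in IDZ and 4 in RZ. Ccnd1 averaged 9.55 in SZ, against 9.37 in RZ.

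Markers of blood cells varied among the arrays. Their part in the cell cycle differences was not tested, nor was that of any proliferative zone tissue in the RZ arrays. The mean of 9 erythroid markers was 7.51, 7.58, 8.23 and 8.51 in IDZ replicates 1 to 4 and 7.48, 9.22, 8.96 and 8.43 in RZ replicates 1 to 4. Globin Hbb measured 9.96, 10.27, 10.97 and 11.60 in IDZ and 10.11, 12.16, 11.82 and 11.54 in RZ. None of the 9 erythroid markers and none of the 9 lymphocyte and neutrophil markers was called, with medians of -0.63 and -0.23. In the same order the mean of the mitosis genes was 7.32, 7.39, 7.29 and 7.32 in IDZ and 8.04, 8.18, 7.93 and 8.12 in RZ. The mean of the replication genes was 7.26, 7.27, 7.26 and 7.30 in IDZ and 7.83, 7.93, 7.79 and 7.90 in RZ.

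**Figure D4:**
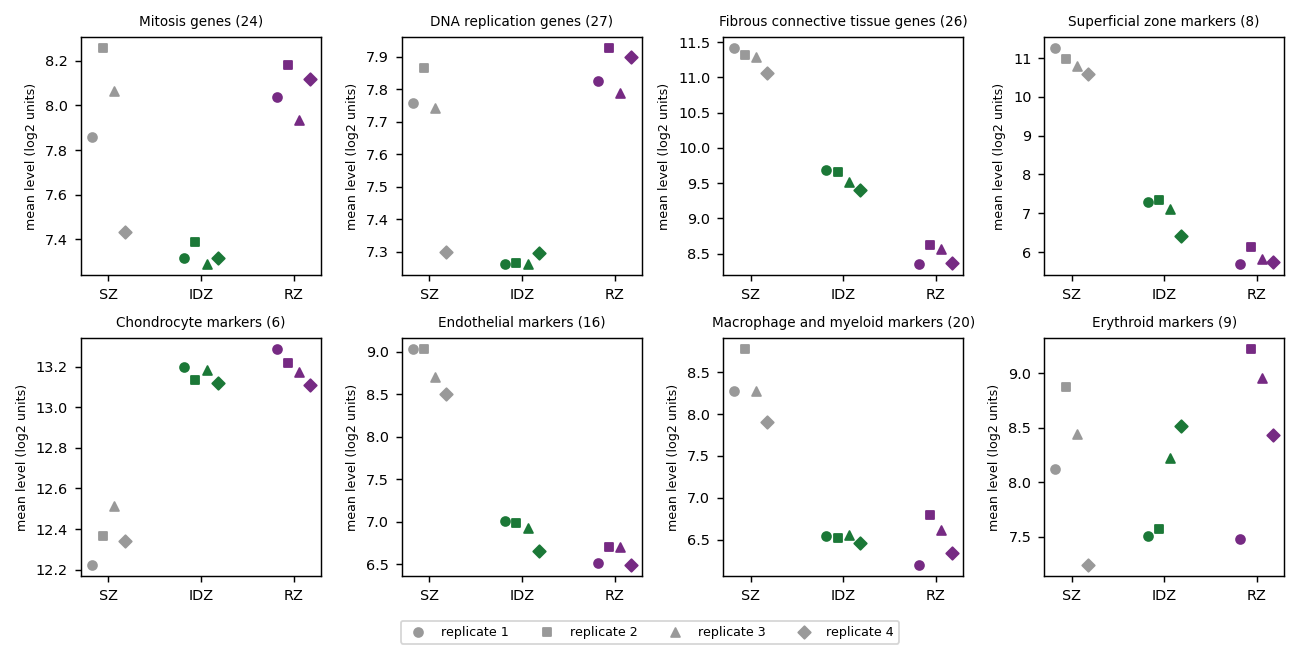
Mean level (log2 units, vertical, a scale of its own in each panel) of 8 gene lists on each of the 12 arrays, with the number of measured genes in the title and the replicate number as the symbol. Mitosis and replication means of all 4 RZ arrays lie above those of all 4 IDZ arrays. Erythroid means run from 7.51 to 8.51 in IDZ and from 7.48 to 9.22 in RZ.

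Transcription factors divided the zones in both directions. Of 23 measured chondrocyte factors 9 were higher in IDZ and 10 in RZ, and 4 did not pass. The RUNX factors, which steer chondrocyte maturation and bone formation, split. Runx2 measured 8.34, 8.38, 8.43 and 8.28 in IDZ and 9.62, 9.63, 9.64 and 9.50 in RZ, 2 tight and separate groups (-1.24 ± 0.08, limma adjusted p = 2.85e-07). Runx3 differed in the same direction by -0.91 ± 0.09. Runx1 was higher in IDZ, at 9.80, 9.81, 9.98 and 9.85 against 8.65, 9.07, 8.56 and 8.41 in RZ (1.19 ± 0.13).

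The hypoxia-inducible factors split as well. Epas1 (HIF-2 alpha) was higher in IDZ by 1.38 ± 0.13 and Hif1a higher in RZ, at -0.50 ± 0.10. The glycolysis and hypoxia genes, many of them targets of these factors, showed 1 call in 28 measured, adrenomedullin (Adm) at -0.91 ± 0.16, and a median difference of 0.01. Foxp1 and Nfib were higher in IDZ by 1.19 ± 0.14 and 1.09 ± 0.09. Higher in RZ were Bcl6 (-1.23 ± 0.17), Lef1 (-1.22 ± 0.12), Bhlhe41 (-1.18 ± 0.11) and the SOX factors Sox8 (-1.11 ± 0.11) and Sox11 (-0.93 ± 0.11).

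Of 33 measured factors that pattern the limb, 13 were higher in IDZ and 2 higher in RZ, against 3.22% and 5.58% of all genes. Their median difference was 0.20. Sim2, a basic helix-loop-helix factor, measured 8.33, 8.21, 8.43 and 8.57 in IDZ and 6.28, 5.99, 6.41 and 6.34 in RZ (2.13 ± 0.11, limma adjusted p = 3.10e-08). The homeobox gene Prrx1 of limb mesenchyme differed by 1.51 ± 0.10, Dlx5 by 1.56 ± 0.11 and Barx1 by 1.50 ± 0.15, each without overlap. Tbx5, a T-box factor known from the forelimb and heart, measured 8.26, 8.50, 6.68 and 6.97 in IDZ and 5.71, 5.68, 5.80 and 5.72 in RZ. Its IDZ arrays fell into replicates 1 and 2 high and replicates 3 and 4 low, all above RZ, so the difference of 1.88 ± 0.31 (limma adjusted p = 0.0013) is a mean over unlike arrays. Dpt had the same split, at 8.03 and 8.03 against 6.88 and 6.73. Shox2, a homeobox gene of the proximal limb skeleton, was the largest of the 2 on the RZ side, at 9.99, 9.93, 9.76 and 9.98 against 8.85, 8.58, 8.59 and 8.72 in IDZ (-1.23 ± 0.13). Among 18 measured Hox genes 17 did not pass.

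Genes of hypertrophy and mineralization were higher in RZ in 8 of 26 measured cases and higher in IDZ in 4. Over all genes the shares were 5.58% and 3.22%. Alkaline phosphatase (Alpl), which frees phosphate for mineral, measured 10.54, 10.28, 10.25 and 10.12 in RZ and 8.70, 8.77, 8.61 and 8.74 in IDZ, with no overlap (-1.59 ± 0.10, limma adjusted p = 1.46e-07). The pannexin channel Panx3 measured 7.09, 8.29, 8.47 and 7.91 in RZ and 6.55, 6.18, 6.48 and 6.75 in IDZ (-1.45 ± 0.27). Bone sialoprotein (Ibsp) measured 7.72, 9.18, 9.18 and 7.88 in RZ and 6.57, 6.79, 7.63 and 6.78 in IDZ. The RZ arrays of these last 2 genes differed widely, with replicate 1 lowest in each. The Ibsp difference of -1.55 ± 0.39 (limma adjusted p = 0.0276) was not called without any one of IDZ replicates 1, 2 and 4 or RZ replicates 2 and 3 (limma adjusted p = 0.0679 to 0.0917), nor with animal pairs as a random block (limma adjusted p = 0.081). Type X collagen (Col10a1), the marker of hypertrophic chondrocytes, was not called at -0.49 ± 0.21, and its arrays overlapped. The membrane transporter Ankh, a brake on mineral, was higher in IDZ by 1.13 ± 0.17. Among 8 measured osteoblast and bone markers only Ibsp was called, and their array means ran from 7.15 to 7.39 in IDZ and from 7.13 to 7.94 in RZ.

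Bone morphogenetic proteins (BMPs) signal growth and maturation to chondrocytes, and their ligands were divided between the zones. Bmp7 measured 10.43, 10.24, 9.95 and 10.25 in RZ and 7.68, 8.16, 8.23 and 8.38 in IDZ, groups far apart (-2.10 ± 0.18, 4.29-fold, limma adjusted p = 3.50e-06). Bmp3, a member that dampens BMP signalling, measured 11.35, 11.33, 11.14 and 11.31 in RZ and 9.71, 9.76, 9.80 and 10.10 in IDZ (-1.44 ± 0.17). Its relative Gdf10, which the paper lists among proliferative zone markers, differed by -0.92 ± 0.18. Bmp5 was higher in IDZ, at 6.34, 6.50, 6.78 and 6.62 against 5.23, 5.08, 5.40 and 5.41 in RZ (1.28 ± 0.15). Of 10 measured ligands 2 were called higher in IDZ and 3 higher in RZ. The second on the IDZ side, Bmp6 at 0.80 ± 0.21, was not called without any one of IDZ replicates 2, 3 and 4 or RZ replicates 1, 3 and 4 (limma adjusted p = 0.0676 to 0.107).

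Secreted antagonists were divided too. Grem1, which traps BMP ligands, measured 9.97, 9.99, 10.22 and 10.24 in IDZ and 8.72, 8.90, 8.65 and 8.56 in RZ (1.40 ± 0.19, limma adjusted p = 0.000338). Chrdl1, a chordin-like antagonist, was the reverse, at 6.26, 6.78, 6.84 and 7.01 in IDZ and 8.36, 7.81, 7.96 and 8.48 in RZ (-1.43 ± 0.20). Of 12 measured antagonists 2 were higher in IDZ and 1 higher in RZ, and none of the 8 measured BMP and activin receptors was called, the largest being Acvrl1 at 0.37. Among 11 response genes, Atoh8 (0.91 ± 0.08) and Smad7 (0.54 ± 0.13) were higher in IDZ and none was higher in RZ. The Smad7 call was lost without any one of IDZ replicates 2 and 4 or RZ replicates 3 and 4 (limma adjusted p = 0.0526 to 0.0633). The paper lists Grem1, higher in IDZ here, among its resting zone markers. Of 16 measured resting zone and progenitor genes 3 were higher in IDZ and 5 higher in RZ, against 3.22% and 5.58% of all genes. Their median difference was -0.13. Of the 3, Pcp4 and Axin2 lost the call without some single arrays.

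Wnt antagonists bind Wnt proteins or their receptors outside the cell. Wif1 measured 8.48, 8.41, 8.56 and 7.99 in IDZ and 6.82, 6.71, 6.58 and 6.58 in RZ, all IDZ arrays above all RZ arrays (1.68 ± 0.15, limma adjusted p = 4.05e-06). Sfrp5 was the opposite, at 9.91, 10.05, 10.56 and 10.86 in IDZ and 12.33, 12.25, 11.99 and 12.12 in RZ (-1.83 ± 0.17, limma adjusted p = 5.07e-06). Of 12 measured antagonists 4 were higher in IDZ and 3 in RZ. Dkk1 (1.08 ± 0.28) was among the 4, but not without any one of IDZ replicates 3 and 4 or RZ replicates 1, 2 and 4 (limma adjusted p = 0.06 to 0.106). Of 16 measured ligands and R-spondins only Wnt5a (-0.53 ± 0.09), Wnt4 and Wnt5b were called, all higher in RZ. Wnt4 was not called without any one of the 4 IDZ replicates or RZ replicates 2, 3 and 4 (limma adjusted p = 0.0767 to 0.128) or with animal pairs as a random block (limma adjusted p = 0.054), nor Wnt5b without any one of IDZ replicate 3 or RZ replicates 2 and 4 (limma adjusted p = 0.0508 to 0.0656). Of 15 receptors 3 were higher in IDZ, led by Fzd4 at 1.29 ± 0.16. Of 8 measured Wnt target and feedback genes 2 were higher in IDZ, Ccn4 (1.44 ± 0.11) and Axin2 (0.34 ± 0.08). Lef1 (-1.22 ± 0.12) and Ccnd1 (-1.44 ± 0.12) were the 2 higher in RZ. The Axin2 call was lost without any one of IDZ replicates 2 and 4 or RZ replicates 2 and 4 (limma adjusted p = 0.0541 to 0.0684).

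**Figure D5:**
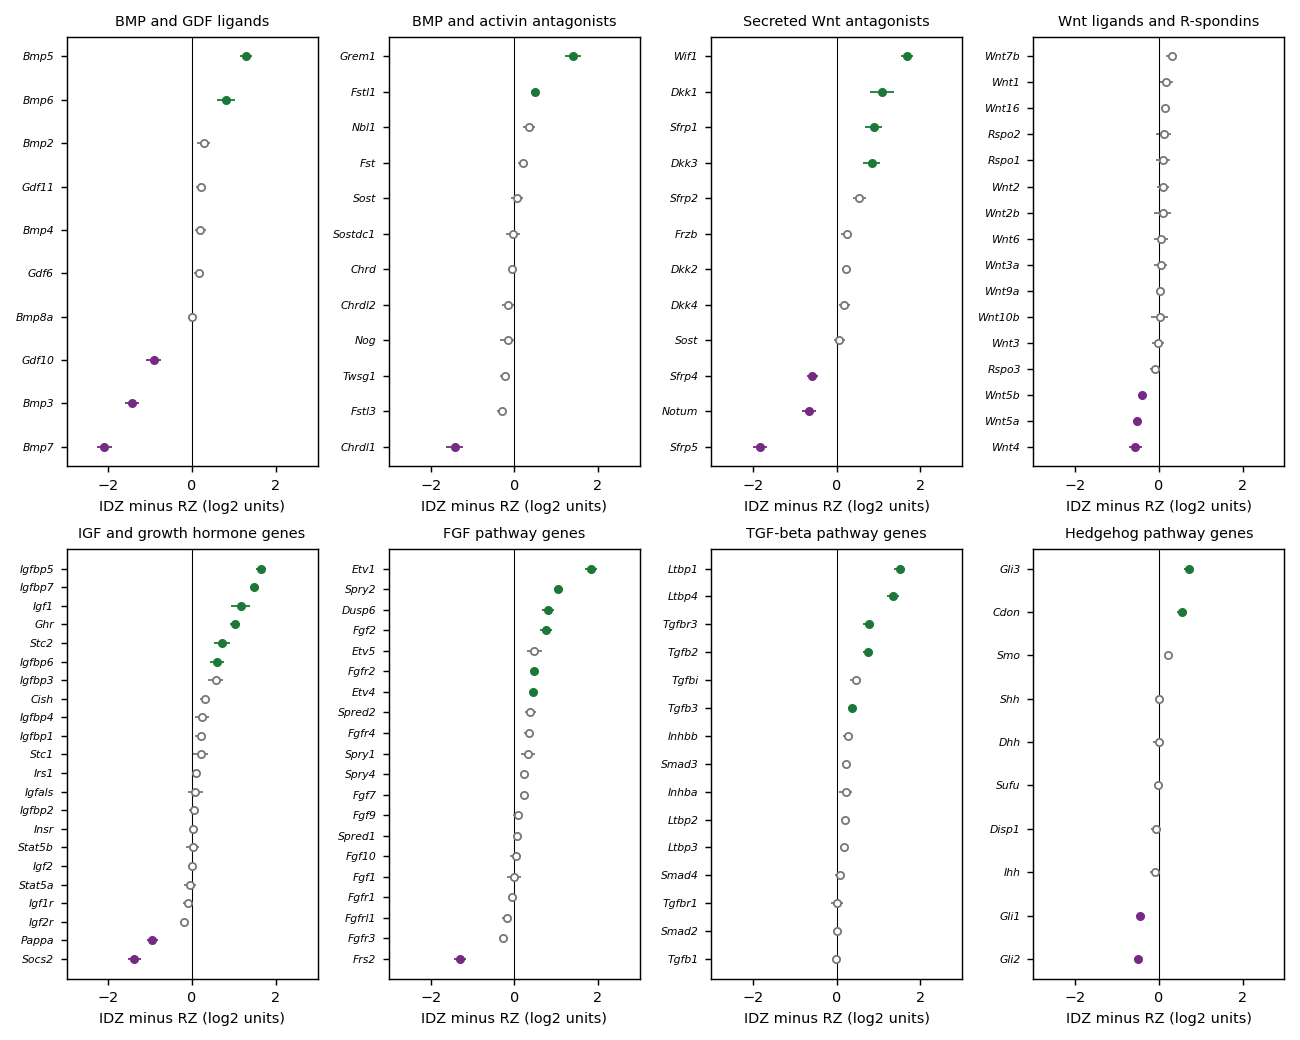
Difference between IDZ and RZ (log2 units, horizontal, bars ± SE) for every measured gene of 8 signalling lists. Filled points passed an adjusted p of 0.05, green where higher in IDZ and purple where higher in RZ, and ligands and antagonists of one pathway lie on both sides, as Bmp5 at 1.28 and Bmp7 at -2.10 do.

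Insulin-like growth factor 1 (IGF-1) drives growth plate chondrocytes and is induced by growth hormone. Its gene Igf1 measured 8.20, 8.26, 7.31 and 7.12 in IDZ and 6.43, 6.88, 6.53 and 6.41 in RZ, with 11.45 ± 0.26 in SZ. All IDZ arrays lay above RZ, replicates 1 and 2 by more (1.16 ± 0.23, limma adjusted p = 0.00563). The binding proteins Igfbp5 (1.65 ± 0.12) and Igfbp7 (1.49 ± 0.11) and the growth hormone receptor Ghr (1.03 ± 0.12) were also higher in IDZ. Higher in RZ were Socs2, a brake on growth hormone signalling, at -1.38 ± 0.15 and the binding-protein protease Pappa at -0.95 ± 0.13. In all, 6 of 22 measured members were higher in IDZ and 2 higher in RZ, against 3.22% and 5.58% of all genes. Igf2 differed by 0.00.

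The fibroblast growth factor (FGF) list had 6 of 20 measured members higher in IDZ and 1 higher in RZ. Over all genes the shares were 3.22% and 5.58%. Genes induced by FGF signalling were among the 6, with the ETS factor Etv1 at 1.83 ± 0.14, Spry2 at 1.05 ± 0.11 and the phosphatase Dusp6 at 0.81 ± 0.15. Frs2, the docking protein of FGF receptors, was the one higher in RZ, at 10.86, 10.63, 10.72 and 10.83 against 9.58, 9.55, 9.28 and 9.44 in IDZ (-1.30 ± 0.14). The receptor Fgfr2 was called higher in IDZ at 0.47, whereas Fgfr1 and Fgfr3 were not called, at -0.06 and -0.27.

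In the TGF-beta list 5 of 15 measured members were higher in IDZ and none in RZ, against 3.22% and 5.58% of all genes. The latent binding proteins Ltbp1, at 9.99, 9.95, 9.93 and 9.86 in IDZ against 8.41, 8.52, 8.41 and 8.38 in RZ (1.51 ± 0.13), and Ltbp4 (1.35 ± 0.14) had the largest differences. The ligand Tgfb2 (0.75 ± 0.12) and the co-receptor Tgfbr3 (0.77 ± 0.13) followed. Tgfb1, Tgfbr1 and Smad2 differed by -0.01, 0.01 and 0.00 and were not called.

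Hedgehog signalling keeps chondrocytes dividing, and its effectors are the GLI factors. Gli3, mainly a repressor, measured 10.36, 10.47, 10.42 and 10.29 in IDZ and 9.74, 9.66, 9.56 and 9.74 in RZ (0.71 ± 0.11, limma adjusted p = 0.000587). Gli2, mainly an activator, measured 9.18, 9.33, 9.17 and 9.30 in IDZ and 9.79, 9.78, 9.73 and 9.71 in RZ (-0.50 ± 0.10, limma adjusted p = 0.0055). Neither gene's zones overlapped. Gli1, a target of the pathway, was also higher in RZ by 0.45 on the log2 scale (-0.45 ± 0.11), a call lost without any one of IDZ replicates 3 and 4 or RZ replicates 1, 2 and 3 (limma adjusted p = 0.0512 to 0.0936). The co-receptor Cdon was higher in IDZ at 0.55 ± 0.12, and the ligand Ihh differed by -0.09 and was not called. Hhip and Ptch1 have no cluster named by 1 symbol here, so the list leaves them out. The paper reports both as higher in RZ than in IDZ on these arrays, with Hhip first in its listing for that direction.

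Receptors for hormones were higher in IDZ in 6 of 19 measured cases and higher in RZ in 3. For this list and the others of this paragraph, the shares over all genes were 3.22% and 5.58%. The type 2 angiotensin receptor Agtr2 measured 8.63, 8.45, 8.61 and 8.40 in IDZ and 6.64, 6.89, 6.92 and 6.83 in RZ (1.70 ± 0.14). The thyrotropin receptor Tshr differed by 1.54 ± 0.13 and averaged 6.19 in SZ, near RZ, where it lay between 5.82 and 6.21. The vitamin D receptor Vdr was higher in RZ, at -0.74 ± 0.10. Ion channels were even, with 7 of 36 measured members called in each direction, Kcnt2 (2.34) and the potassium channel regulator Kcnip1 (-2.04 ± 0.16) being the largest. In glycosaminoglycan metabolism 2 of 38 were higher in IDZ, the extracellular sulfatases Sulf2 (1.84 ± 0.14) and Sulf1 (1.31 ± 0.12), and 5 higher in RZ, led by the sulfotransferase Chst15 (-0.91 ± 0.12). Of 15 Notch pathway genes the glycosyltransferase Lfng (0.86 ± 0.11) was higher in IDZ and the target Heyl (-0.60 ± 0.14) higher in RZ, and Heyl was not called without IDZ replicate 4 or RZ replicate 2 (limma adjusted p = 0.0511 and 0.0546).

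Markers of other cell types showed few calls. None of 16 endothelial, 20 macrophage and myeloid, 4 osteoclast or 8 adipocyte markers was called. Of the 16 endothelial differences 15 were above 0, with a median of 0.31 against 0.01 for all genes. Cd34 of this list, at 0.87 ± 0.26, was called in the fit on the 8 IDZ and RZ arrays alone (limma adjusted p = 0.0447). Endothelial array means lay between 6.65 and 7.01 in IDZ and between 6.49 and 6.71 in RZ. Those of the myeloid list lay between 6.47 and 6.56 in IDZ and between 6.19 and 6.79 in RZ. Among 12 pericyte and smooth muscle markers 2 were higher in IDZ, Pdgfrb (0.80 ± 0.11) and Mylk, and 1, Des, higher in RZ. The part of these cells in any difference above was not tested.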

How the data were processed

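RNA of microdissected zones was measured with Affymetrix Rat Gene 1.0 ST microarrays. The deposited values are log2 intensities of transcript clusters, which the authors made by robust multiarray averaging (RMA) in Partek 6.6, per the labels. The genome build of the probes is not given in the sources used here.

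Of 27342 clusters, 15068 had 1 gene symbol in the platform annotation, 323 had several and 11951 had none. A gene was represented by its brightest cluster. limma 3.58.1 in R 4.3.3 fitted 1 mean per zone over all 12 arrays, and moderated p-values of IDZ minus RZ were adjusted by Benjamini-Hochberg over all clusters. Totals were also counted with at least 2-fold. The named genes were the 20 largest in each direction, members of 49 gene lists and markers. The 20 largest were taken from genes called with at least 2-fold whose IDZ and RZ arrays did not overlap. The lack of overlap in those genes was therefore set by the choice. The members and lists were chosen with earlier results of these data known. The number of arrays limits the precision, and scripts were tested on simulated data. Same-numbered IDZ and RZ arrays share animals per the labels, and deviations from the zone means correlated at 0.0184, 0.022, 0.0274 and 0.205 in the 4 pairs. Alternatives covered the arrays fitted, the block, normalization, the dim-cluster filter, a test against 2-fold and each array left out. The microRNA precursors of the Dlk1-Dio3 list, 43 in all, were not analysed here. Python 3.11.15 and matplotlib 3.10.9 drew the figures.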

Additional observations from a re-analysis of the deposited data

Results flagged for a closer look

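Of 92 groups of 4 arrays examined, 7 held an array far from the other 3, and chance alone gives about 1 in 20. Prg4 measured 8.86 in IDZ replicate 4 and 10.61 to 10.95 in the others. F13a1 measured 8.43 in IDZ replicate 4 and 7.71 to 7.81 in the others. The mean of the DNA replication genes was 7.30 in IDZ replicate 4 and 7.26 to 7.27 in the others. Adgrb1 measured 9.50 in RZ replicate 1 and 9.24 to 9.27 in the others. Bmp3 measured 11.14 in RZ replicate 3 against 11.31 to 11.35, and Fa2h measured 7.60 there against 8.18 to 8.28. Slc40a1 measured 10.91 in RZ replicate 4 and 10.52 to 10.55 in the others. Causes were not tested.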

How the results depend on the processing

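Without a minimum fold, 461 genes were higher in IDZ and 798 higher in RZ. These counts became 876 and 1816 in a fit on the 8 IDZ and RZ arrays alone. In that 8-array fit they were 824 and 1473 after a further quantile normalization of the 8 arrays. With the replicate block of animal pairs added to the fit on the 8 arrays they were 867 and 1708. With animal pairs as a random block over all 12 arrays, whose correlation was estimated at -0.14, they were 371 and 641. With any 1 array left out they ranged from 316 to 817 and from 464 to 1747. With at least 2-fold, 101 and 75 genes became 97 to 106 and 74 to 83. The test against 2-fold itself called 26 and 20 genes, 0 replication, 0 mitosis, 5 fibrous, 3 limb factor and 2 protease genes. With 1 array left out, the list counts ranged from 11 to 23 for replication, 15 to 22 for mitosis, 14 to 19 for fibrous genes, and 10 to 15 and 10 to 16 for limb factors and proteases. Aspn, Cd34, Kera, Tnmd and Tppp3, not called over 12 arrays, passed on 8 arrays with the replicate block (limma adjusted p = 0.0308, 0.00804, 0.0336, 0.0267 and 0.02), against 0.0268, 0.0447, 0.0522, 0.0146 and 0.117 on 8 arrays without it. The random block ended the calls of 23 named genes (limma adjusted p = 0.054 to 0.0903), among them Wnt4, Ibsp, Dkk3, E2f1, Col5a2, Slc11a2 and Igfbp6. Of 261 called named genes, 201 stayed called whichever array was left out, and none changed direction in any setting. The cause of these changes was not tested.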

Other observations

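Among 12274 clusters without a single gene symbol, 41 were higher in IDZ and 32 higher in RZ with at least 2-fold. Of these, 1 higher in RZ was among the 323 clusters with several symbols, and the rest were among the 11951 that the platform annotation used here leaves without a symbol. The largest differences were 2.54 toward IDZ and 3.71 toward RZ, both in clusters without a symbol. The latter exceeded that of F13a1, at -2.82 the largest toward RZ among named genes. The paper lists Hhip, which has no cluster with a single symbol here, first among genes higher in RZ. Whether this cluster reads Hhip was not determined here.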
